A study of Homo sapiens with 63 samples.

Results

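The mRNAs of the SLC25 family of membrane carriers were followed across polysome gradients of HEK293 cells, a human embryonic kidney cell line. Members were all genes of the deposited table whose symbol is SLC25A followed by a number, which gave 40 of 11074 genes. The study set cells in exponential growth (log phase) beside cells kept without serum for 2 h and cells kept without amino acids for 1 h. The amino acid-free medium was a salt solution (EBSS) with MEM vitamins and 10% fetal bovine serum, so serum was present there. All cells received cycloheximide, which holds ribosomes on mRNA, before lysis in a detergent buffer. Each lysate was spread over 1 gradient, and polyadenylated RNA of fractions 3 to 22 was sequenced, giving 20 fractions per condition. No condition was repeated, so the differences below could not be tested and carry no p-value. The odd-numbered and the even-numbered fractions of a gradient were analysed apart, and their values stand beside each result as the spread within a gradient.

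SLC25 carriers exchange small molecules across membranes, most of them across the inner mitochondrial membrane. They are encoded in the nucleus and translated in the cytosol, and those of the inner mitochondrial membrane are brought there by the TOM and TIM complexes. The ADP/ATP carriers, also called adenine nucleotide translocases, pass ATP made in the matrix to the cytosol in exchange for ADP, and the phosphate carrier brings in the phosphate for that ATP. SLC25A4, SLC25A5 and SLC25A6 encode ADP/ATP carriers, of which SLC25A4 is known as the form of heart and skeletal muscle and the other two as forms of many tissues. SLC25A3 encodes the phosphate carrier. The abundant SLC25A3, SLC25A5 and SLC25A6 were compared with the remaining 37 carriers. In a polysome gradient, mRNAs that carry many ribosomes separate from free mRNAs by their sedimentation.

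The bases around the annotated transcription start are shown for the ADP/ATP and phosphate carriers, because mRNAs that begin with C and a run of pyrimidines (5′ terminal oligopyrimidine, or TOP, mRNAs, such as those of ribosomal proteins) are known to leave polysomes when nutrients are withdrawn. Each window holds 30 bases before the annotated start and 20 from it, 5′ to 3′ on the gene's strand, taken from RefSeq on GRCh38.p14. Capitals mark the unbroken run of C and T that begins with a C at the annotated start, and a window without capitals has no C there.
SLC25A6: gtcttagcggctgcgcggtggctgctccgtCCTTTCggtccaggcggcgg
SLC25A5: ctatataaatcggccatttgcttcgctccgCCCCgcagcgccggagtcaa
SLC25A3: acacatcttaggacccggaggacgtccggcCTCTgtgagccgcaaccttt
SLC25A4: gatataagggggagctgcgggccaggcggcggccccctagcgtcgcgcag
SLC25A23: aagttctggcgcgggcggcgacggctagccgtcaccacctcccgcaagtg
SLC25A22: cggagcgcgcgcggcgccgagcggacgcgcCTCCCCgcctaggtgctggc
SLC25A21: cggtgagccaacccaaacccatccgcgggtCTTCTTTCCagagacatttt

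These windows lie at chrX:1392094-1392143 on the minus strand for SLC25A6 and chrX:119468414-119468463 on the plus strand for SLC25A5. Those of SLC25A3 and SLC25A4 are chr12:98593656-98593705 and chr4:185143236-185143285, each on the plus strand. The windows of SLC25A23, SLC25A22 and SLC25A21 are chr19:6459773-6459822, chr11:798262-798311 and chr14:37172587-37172636, each on the minus strand. The SLC25A6 run was 6 bases long, while SLC25A5 and SLC25A3 had runs of 4 bases. SLC25A4 and SLC25A23 had no C at the annotated start. SLC25A22 and SLC25A21 are shown because they were the other carriers with a run of at least 5 bases, of 6 and 9 bases.

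Of the 40 carriers, 30 had a RefSeq window at the 5′ end of the gene, and 3 of them (10%) had a run of at least 5 bases that began with C at the annotated start. The same rule, read on the gene's strand, held for 5.63% of the 7643 tested genes with a window and for 67.6% of 37 mRNAs of large ribosomal subunit proteins. The 5-base minimum and the choice of this feature were made with results of these data known. An annotated start need not be the start used in HEK293 cells, and start sites were not measured here.

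The deposited value of a gene in a fraction, called signal here, carries a scale for each fraction that the sources used here do not give. The signal of all genes summed to between 36830 (fraction 6, log phase) and 66982000 (fraction 18, log phase). In both starved gradients fraction 9 had the highest total, at 26736000 without serum and 29912000 without amino acids. Which end of the gradient is heavier is not stated in the labels, so fractions are called lower- or higher-numbered. HEK293 cells are known for vimentin, keratin and neurofilament expression. VIM, NEFL and NEFM stood at 282, 380 and 346 per 1000000 of the log phase signal, and the keratins KRT8 and KRT18 lower, at 8.11 and 29.3. PTPRC, ALB, HBB and COL1A1, markers of blood, liver and connective tissue cells, have no row in the table used here.

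The signal of SLC25A3, SLC25A5 and SLC25A6 made up most of the family's signal. Level is used here for the signal of a gene summed over fractions 3 to 22 per 1000000 of the gradient's total, and it is a per-length scale if the deposited values are TPM, as they are named. In log phase SLC25A6 stood at 789, SLC25A5 at 657 and SLC25A3 at 633. Together they held 65.9% of the 3156 per 1000000 of all 40 carriers, and the share within single fractions ran from 34.4% (fraction 12) over a median of 53.7% to 81.7% (fraction 21). The share over the gradient was 73.4% without serum and 74.7% without amino acids. Within single fractions it was 62.3% to 85.0% without serum and 62.3% to 85.5% without amino acids.

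The next carrier by level was SLC25A39, a glutathione carrier, at 197 in log phase. SLC25A11, which exchanges 2-oxoglutarate and malate, followed at 154 and the citrate carrier SLC25A1 at 109. SLC25A4, SLC25A38 (glycine) and SLC25A17, a cofactor carrier of peroxisomes, stood at 63.6, 58.4 and 56.4. The lowest carrier was SLC25A45, at 0.852. All 40 carriers passed the filter on low signal (in every gradient, a mean signal of 5 or more and no more than 5 fractions at 0). Each had a value above 0 in at least 18 fractions, and 32 had one in all 20 fractions of the log phase gradient.

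**Figure D1:**
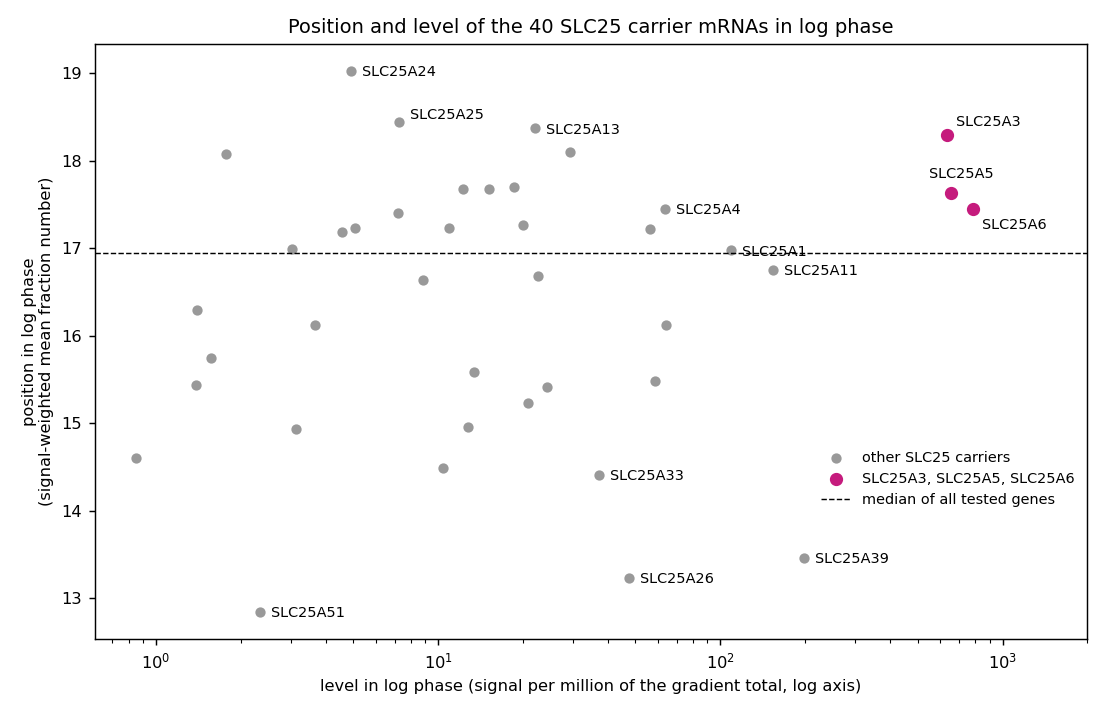
Level (x axis, signal per 1000000 of the gradient total, log axis) and position (y axis, signal-weighted mean fraction number) of the 40 carrier mRNAs in the log phase gradient; the dashed line is the median of all tested genes, at 16.94. SLC25A3, SLC25A5 and SLC25A6 lie apart at levels above 600, at positions of 17.44 to 18.30, while the other carriers spread from 12.84 to 19.02.

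In log phase, with the deposited signal, the mRNAs of SLC25A3, SLC25A5 and SLC25A6 sat in higher-numbered fractions than most of their family. The position of a gene is its mean fraction number weighted by signal. It was 18.30 for SLC25A3, 17.64 for SLC25A5 and 17.44 for SLC25A6, against a median of 16.69 for the other 37 carriers. The median of the 3 was thus 0.95 fractions above that of the others (0.89 in odd and 1.01 in even fractions). This difference depended on the weights, being 2.65 with every fraction given the same total and -0.65 with log2 signal as the weight. It did not hold for each of the 3 with equal fraction totals. There SLC25A3 lay at 17.38 and SLC25A5 at 15.89, but SLC25A6 at 13.26. The median of the other carriers was then 13.24 and that of all tested genes 14.22. With the deposited signal, large ribosomal subunit protein mRNAs (48 genes) had a median of 16.01, and all 10889 tested genes one of 16.94.

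The other carriers spread widely in log phase. The highest positions were 19.02 for SLC25A24 and 18.44 for SLC25A25, calcium-regulated carriers of ATP-Mg and phosphate, and 18.37 for SLC25A13, an aspartate/glutamate carrier. The lowest were 12.84 for SLC25A51, which carries NAD+ into the matrix, 13.24 for SLC25A26, the carrier of S-adenosylmethionine, and 13.47 for SLC25A39. Odd and even fractions differed most for these low positions, at 11.80 and 14.06 for SLC25A51, 12.40 and 14.17 for SLC25A26 and 12.76 and 14.20 for SLC25A39. These 3 carriers had 45.6%, 48.0% and 43.2% of their log phase signal in fractions 8 to 12, where SLC25A4 had 4.3%. By role, medians ran from 15.54 for the 4 iron and glutathione carriers to 17.94 for the 4 carriers of ADP/ATP or ATP-Mg other than SLC25A5 and SLC25A6.

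Without serum, the mRNAs of SLC25A6, SLC25A3 and SLC25A5 lay in lower-numbered fractions than in log phase, and by more than the median gene. A shift is the position after starvation less the log phase position, less the median of this difference over all tested genes, which was -1.35 fractions for serum and -1.80 for amino acids. A gene was called lower or higher by a size rule, which is not a test, when its shift reached 1 fraction and the odd and even fractions, taken apart, each gave 0.5 or more with that sign. This rule called 9.86% of all tested genes lower and 5.7% higher without serum. Among the carriers 6 of 40 were called lower, namely all 3 of these abundant mRNAs and 3 of the other 37, and 2 were called higher. The count among the other 37 is near the share of all genes.

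SLC25A6 moved farthest. Its log phase signal ran from 42.3 to 60029 with a median of 4909, and its highest value was in fraction 18. Without serum the values ran from 113.5 to 55767 with a median of 6363, and the highest was in fraction 9. The larger share of its signal thus lay on the other side of the gradient. Fractions 18 to 22 held 62.9% of the SLC25A6 signal in log phase and 13.7% without serum, while fractions 8 to 12 held 9.1% and 62.6%. Fraction 9 alone held 4.19% and 27.99%. The shift was -4.64 (-4.88 in odd and -4.35 in even fractions), with the deposited signal the fifth lowest of the 10889 tested genes. With equal fraction totals it was -4.09, and SLC25A3 moved farther, at -4.29.

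SLC25A3, the phosphate carrier, had log phase signals of 8.74 to 54622 (median 2005) with the highest in fraction 20. Without serum they were 49.1 to 17913 (median 5023) with the highest in fraction 9. Fraction 9 also had the highest total of that gradient. As a share of all signal in a fraction, SLC25A3 was highest in fraction 21 in log phase and in fraction 20 without serum. Fractions 18 to 22 held 71.5% of its log phase signal and 32.5% of its signal without serum, and fractions 8 to 12 held 2.5% and 39.0%. A second, lower maximum without serum was at fraction 19, with 10.4% of its signal. The shift was -2.76 (-3.29 odd, -2.28 even).

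SLC25A5, the other ADP/ATP carrier of this group, had log phase signals of 8.12 to 50726 (median 4175) with the highest in fraction 18. Without serum they were 97.5 to 12637 (median 3877), and the highest was in fraction 19, with 12.5% of its signal. Fraction 9, on the lower-numbered side, was close to it at 11.9%. Fractions 18 to 22 held 61.8% of its log phase signal and 36.3% of its signal without serum. Fractions 8 to 12 held 5.5% and 33.4%. The shift was -1.70 (-1.94 odd, -1.48 even), so the odd and even values of SLC25A5, SLC25A3 and SLC25A6 did not overlap.

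SLC25A4, the third ADP/ATP carrier, did not share this change. Its signals were 0.64 to 5679 (median 310.5) in log phase and 2.3 to 1499 (median 93.0) without serum, each with the highest value in fraction 18. Fractions 18 to 22 held 57.0% of its signal in log phase and 57.8% without serum. Its position was 17.45 and 17.29, and relative to the median gene the shift was 1.18 (1.06 odd, 1.28 even), called higher. That call was lost without fraction 10 (0.999), with equal fraction totals (0.14) and with scaling to the spike-in RNAs (0.63), and without centring the shift was -0.17.

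**Figure D2:**
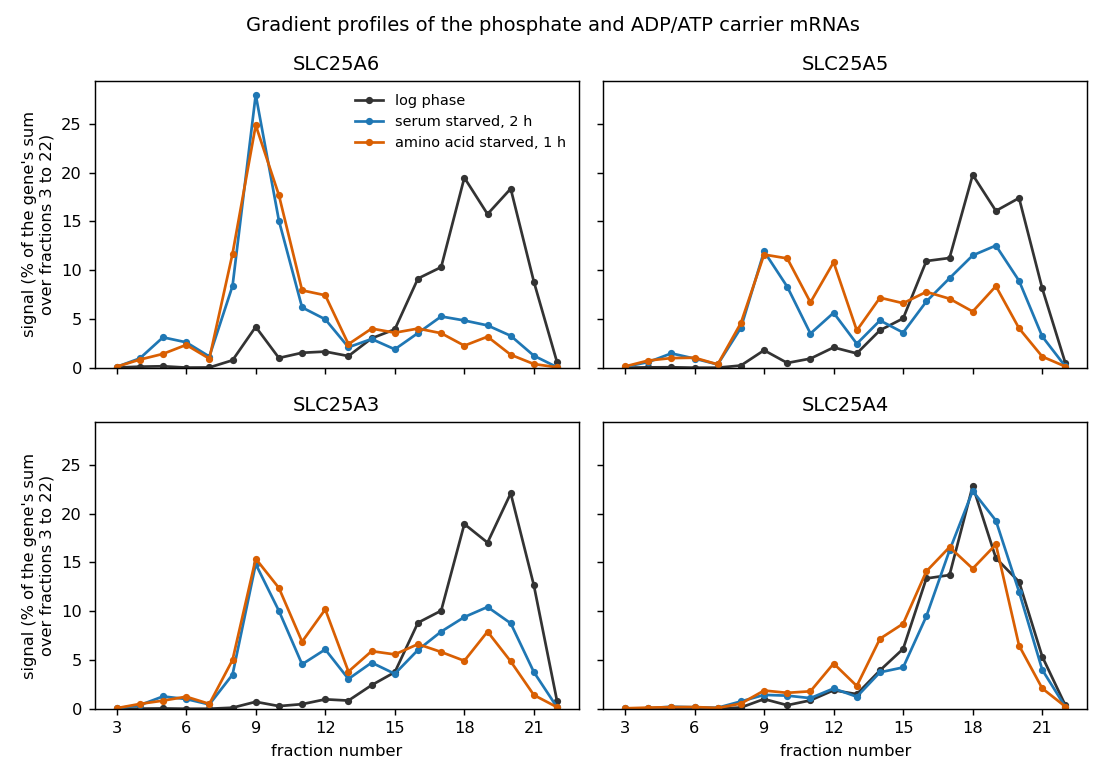
Share of each mRNA's own signal (y axis, percent of its sum over fractions 3 to 22) in each fraction (x axis) of the log phase, serum starved and amino acid starved gradients, 1 gradient per line. SLC25A6 has 27.99% and 24.9% of its signal in fraction 9 of the starved gradients against 4.19% in log phase, whereas the SLC25A4 lines keep their maximum at fraction 18 or 19. Fraction 9 also has the highest total of each starved gradient.

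Without amino acids the same 3 mRNAs were again in lower-numbered fractions. Both starvations were compared with 1 log phase gradient, so the contrasts share their control. The size rule called 9.57% of all tested genes lower and 6.84% higher. Among the carriers 6 were called lower, the 3 abundant mRNAs and 3 of the other 37, a count again near the share of all genes, and none was called higher.

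The SLC25A6 signals ran from 91.5 to 51383 (median 5783) without amino acids, and the highest was in fraction 9, as without serum. Fractions 8 to 12 held 69.6% and fractions 18 to 22 held 7.2% of its signal. The shift was -4.60 (-4.58 odd, -4.60 even), with the deposited signal the eighth lowest of all tested genes. SLC25A6 thus lay at 11.46 without serum and 11.04 without amino acids, close to the medians of the ribosomal protein mRNAs, at 11.5 and 11.0.

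The SLC25A3 signals were 79.7 to 19403 (median 6256) without amino acids, with the highest in fraction 9. Fractions 8 to 12 held 49.9% and fractions 18 to 22 held 19.3%, and the shift was -3.42 (-3.79 odd, -3.08 even). The SLC25A5 signals were 138.6 to 13546 (median 6037), and here its highest value too was in fraction 9. Fractions 8 to 12 held 44.9% and fractions 18 to 22 held 19.4%, and its shift was -2.46 (-2.51 odd, -2.39 even). Fraction 9 also had the highest total of this gradient. As a share of all signal in a fraction, SLC25A3 was highest in fraction 20 and SLC25A5 in fraction 19. SLC25A4 had signals of 3.8 to 1279 (median 150.4) with the highest in fraction 19, and its share in fractions 18 to 22 was 40.0%. Its shift of 0.77 (0.74 odd, 0.78 even) was not past the size rule.

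As a group the 3 abundant mRNAs had a median shift of -2.76 without serum (-3.29 odd, -2.28 even) and -3.42 without amino acids (-3.79 odd, -3.08 even). The other 37 carriers had medians of -0.04 without serum (-0.07 odd, -0.45 even) and -0.04 without amino acids (-0.09 odd, -0.10 even), with 0 as the median of all genes by construction. Shifts of the 37 ran from -2.52 to 1.33 without serum and from -1.92 to 0.97 without amino acids. SLC25A6 and SLC25A3 lay below the whole range of the 37 in both contrasts, and SLC25A5 did so without amino acids only. For SLC25A3 without serum this margin was narrow and depended on the summary. SLC25A23, the lowest of the 37, was below it in even fractions (-2.64 against -2.28). It was also below SLC25A3 with the median fraction as position (-4.78 against -3.38). The calls of the 3 held with equal fraction totals, where SLC25A6, SLC25A3 and SLC25A5 shifted by -4.09, -4.29 and -2.83 without serum and by -4.32, -5.06 and -3.73 without amino acids. With log2 signal as the weight they kept their sign but were below 1 fraction in size, at -0.19, -0.41 and -0.20 without serum. In both of these settings SLC25A3 had the largest shift of the 3, so their order depended on the weights.

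**Figure D3:**
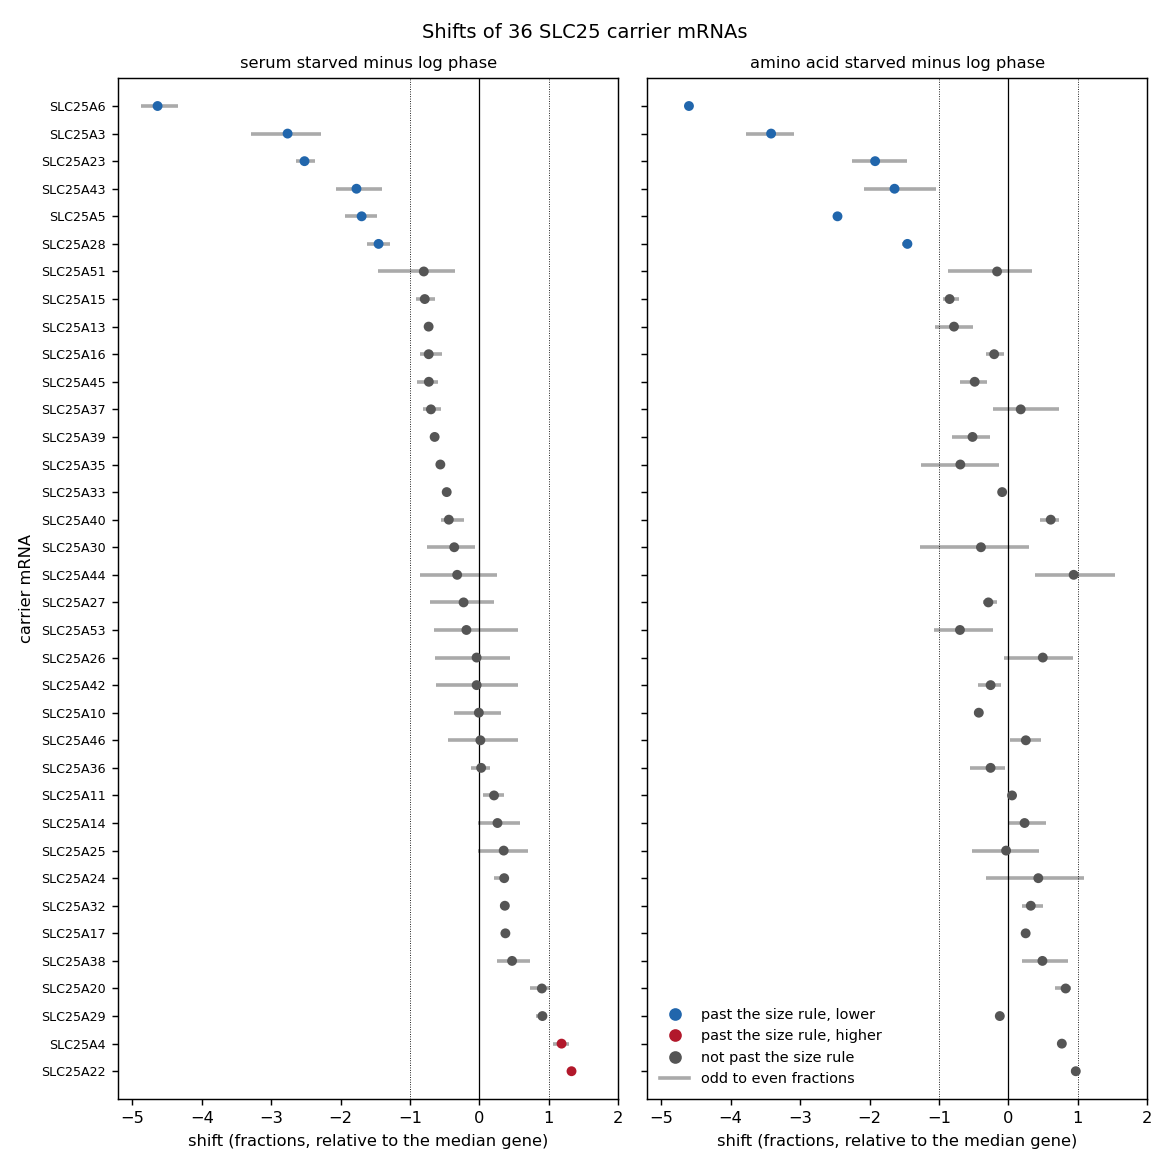
Shift of the 36 carrier mRNAs that shifted by at least 0.2 fractions in either starvation (x axis, fractions relative to the median tested gene; dotted lines at -1 and 1) without serum (left) and without amino acids (right), ordered by the serum value; the grey bar joins the values of odd and even fractions, and colours give the size rule. The 6 mRNAs in blue lie between -4.64 and -1.45 on both sides, and the 2 in red, SLC25A4 and SLC25A22, at 1.18 and 1.33 on the serum side.

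Ratios of carriers within the same fraction do not depend on the scale of the fraction. In fractions 8 to 12 the SLC25A6 signal was 33.6 times that of SLC25A4 in log phase (median of 5 fractions, range 10.8 to 71.9). It was 329 times without serum (70.7 to 584) and 294 times without amino acids (43.5 to 598), above log phase in 5 of 5 fractions each. In fractions 18 to 22 the order turned around, with medians of 17.5 in log phase (10.6 to 20.4), 8.10 without serum (6.44 to 9.14) and 5.14 without amino acids (4.28 to 5.59). All 5 fractions of each starved gradient were below log phase there, and the ranges did not overlap. SLC25A4 signals were low in the lower-numbered fractions, at 32.8 in fraction 8 of log phase, 50.8 after serum withdrawal and 40.4 without amino acids.

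SLC25A5 and SLC25A3 gave the same direction against SLC25A4. The median SLC25A5 to SLC25A4 ratio in fractions 8 to 12 was 13.7 in log phase, 81.2 after serum withdrawal and 95.4 without amino acids. In fractions 18 to 22 it was 13.7, 10.2 and 8.26. The SLC25A3 to SLC25A4 ratio was 7.15, 83.3 and 126 in fractions 8 to 12 and 16.9, 13.1 and 11.2 in fractions 18 to 22. Both ratios were above log phase in 5 of 5 of the lower-numbered and below it in 5 of 5 of the higher-numbered fractions, in each starvation.

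The 3 abundant mRNAs also changed against each other. In fractions 18 to 22 the median SLC25A6 to SLC25A5 ratio was 1.27 in log phase, 0.758 after serum withdrawal and 0.660 without amino acids, below log phase in 5 of 5 fractions each. Within single fractions, the SLC25A6 to SLC25A3 ratio was below log phase in all 20 fractions of both starved gradients. Its medians over the fractions were 1.95, 1.24 and 1.15. The summed level, which carries the unknown scale of each fraction, rose more for SLC25A6 (789, 1221 and 1128) than for SLC25A3 (633, 740 and 688). In each gradient the ratio was higher in fractions 8 to 12 (medians 4.49, 2.48 and 2.34) than in fractions 18 to 22 (1.04, 0.616 and 0.448). In fractions 8 to 12 SLC25A3 had been less than SLC25A5 in log phase (median ratio 0.472) and exceeded it without serum (1.45) and without amino acids (1.18).

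**Figure D4:**
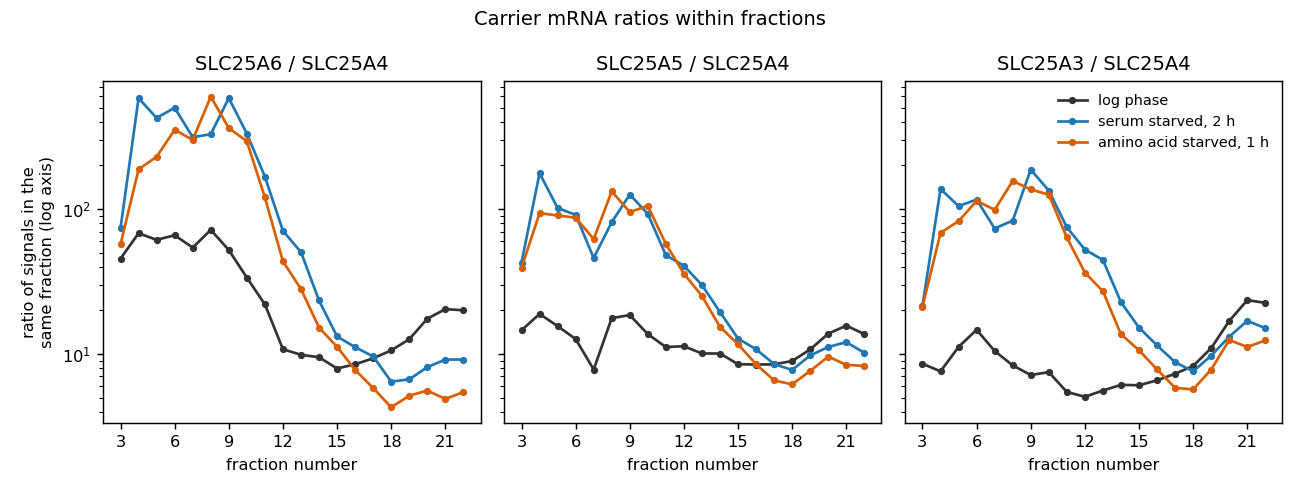
Ratio of the SLC25A6, SLC25A5 and SLC25A3 signal to the SLC25A4 signal of the same fraction (y axis, log axis) against fraction number (x axis), 1 line per gradient. The starved lines lie above log phase in fractions 8 to 12 and below it in fractions 18 to 22 in all 3 panels; the SLC25A6 ratio in fractions 18 to 22 is 17.5, 8.10 and 5.14 in the median.

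As a share of all signal in a fraction, SLC25A6 averaged 570 per 1000000 over fractions 8 to 12 in log phase, 1541 after serum withdrawal and 1374 without amino acids, above log phase in 5 of 5 fractions each. Over fractions 18 to 22 it averaged 1176, 719 and 490, and no starved fraction exceeded its log phase counterpart. SLC25A3 averaged 120, 630 and 618 over fractions 8 to 12, but over fractions 18 to 22 it averaged 1164, 1110 and 908 and exceeded log phase in 2 of 5 fractions without serum and 1 of 5 without amino acids. SLC25A5 averaged 257, 456 and 531 over fractions 8 to 12. Over fractions 18 to 22 it averaged 924, 936 and 766, above log phase in 2 of 5 fractions without serum and 1 of 5 without amino acids. SLC25A4 ran the other way from SLC25A6, with 19.2, 7.24 and 8.74 over fractions 8 to 12 and 75.4, 93.7 and 98.4 over fractions 18 to 22.

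SLC25A6 values can include reads that its relatives share, since the ADP/ATP carrier mRNAs are similar in sequence and have processed copies in the genome. The RefSeq gene table names 6 pseudogenes of SLC25A6, 9 of SLC25A5 and 3 of SLC25A3, and none of SLC25A4. How reads that match several of them were divided was not tested, and the values of these genes are uncertain to that extent. SLC25A6 lies at chrX:1386152-1392113 on GRCh38.p14, SLC25A5 at chrX:119468444-119471396, SLC25A3 at chr12:98593686-98606367 and SLC25A4 at chr4:185143266-185150382.

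Of the other 37 carriers, 3 were called lower in both starvations, and they have different roles. SLC25A23, a calcium-regulated carrier of ATP-Mg and phosphate, had signals of 0.58 to 1948 (median 464.5) in log phase, 1.1 to 740.6 (median 139.8) without serum and 1.6 to 622.7 (median 136.4) without amino acids. Its share in fractions 8 to 12 was 19.5%, 58.0% and 55.2%, a change in the same direction as for SLC25A6. Its shifts were -2.52 (-2.37 odd, -2.64 even) and -1.92 (-1.46 odd, -2.26 even), but with equal fraction totals they were -0.78 and -0.63 and the calls were lost. It has no C at its annotated start. The gene lies at chr19:6436081-6459792.

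SLC25A28 encodes mitoferrin 2, which brings iron into mitochondria. Its signals were 0.12 to 1746 (median 124.9) in log phase, 0.3 to 340.8 (median 103.2) without serum and 0.8 to 267.9 (median 89.7) without amino acids. Fractions 8 to 12 held 7.1%, 35.1% and 34.7% of them. The shifts of -1.45 (-1.62 odd, -1.29 even) and -1.45 (-1.53 odd, -1.39 even) were 0.04 and -0.13 with equal fraction totals.

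SLC25A43, a carrier of uncertain substrate whose gene (chrX:119399336-119454478) lies beside SLC25A5, had signals of 0 to 624 (median 47.9) in log phase, 0 to 106.7 (median 43.0) without serum and 0 to 158.7 (median 39.5) without amino acids. Its share in fractions 8 to 12 was 5.8%, 34.0% and 32.3%, and in fractions 18 to 22 59.5%, 23.8% and 13.4%. The shifts were -1.77 (-1.40 odd, -2.07 even) and -1.64 (-1.04 odd, -2.08 even). They were -2.03 and -1.99 with equal fraction totals. The amino acid shift was -1.47 without fraction 19, where it fell outside the size rule.

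SLC25A22, a glutamate carrier, was called higher without serum. Its signals were 0.21 to 1962 (median 183.5) in log phase, 0.2 to 310.9 (median 36.5) without serum and 0.7 to 354.8 (median 40.8) without amino acids. Its position was 16.69 in log phase and 16.66 without serum, so the shift of 1.33 (1.32 odd, 1.30 even) is a shift against the median gene, and it was -0.02 without centring. The amino acid shift of 0.97 was just under the size rule. With equal fraction totals the serum shift was 0.95, also under it.

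By role, the other carriers fall into classes of 1 to 9 genes, too small to set their counts of calls against the share of all genes. The 4 citrate and other di- and tricarboxylate carriers had no call in either starvation, with shifts of 0.09 and -0.03 for SLC25A1 and 0.21 and 0.05 for SLC25A11. Of the 7 amino acid carriers SLC25A22 alone was called, and SLC25A13 and SLC25A38 shifted by -0.73 and 0.47 without serum and -0.78 and 0.49 without amino acids. The 9 cofactor and pyrimidine nucleotide carriers had no call, with SLC25A17 at 0.37 and 0.25, SLC25A26 at -0.04 and 0.50 and SLC25A51 at -0.80 and -0.16. SLC25A20, which carries acylcarnitines for fatty acid oxidation, shifted by 0.90 and 0.82. Neither of these passed the size rule.

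The 4 iron and glutathione carriers all had shifts below 0 without serum, with a median of -0.67 (-0.71 odd, -0.63 even), which was -0.10 with equal fraction totals. Without amino acids 2 of the 4 were below 0 and the median was -0.17. SLC25A28 was the one called, and SLC25A39 shifted by -0.65 and -0.52. The 3 uncoupling protein-like carriers (SLC25A14, SLC25A27 and SLC25A30) had none. Of the 5 carriers of uncertain substrate SLC25A43 alone was called. Of the 4 remaining nucleotide carriers SLC25A24 and SLC25A25 had no call, with 0.36 and 0.35 without serum and 0.43 and -0.03 without amino acids. SLC25A23 was thus the one called lower among these 4.

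The starved gradients were also compared with each other. Here 1.06% of all tested genes were called lower and 2.01% higher without amino acids than without serum, and the carriers held 1 lower and 2 higher among 40, too few to read against those shares. SLC25A44, a carrier of branched-chain amino acids, was higher by 1.28 (1.26 odd, 1.26 even), with 52.3% of its signal in fractions 8 to 12 without serum and 32.8% without amino acids. Fraction 15 of the amino acid gradient alone held 19.6% of its signal, against 5.34% without serum. SLC25A40, a glutathione carrier, was higher by 1.07 (0.66 odd, 1.31 even), with 31.8% and 20.5% in fractions 8 to 12. SLC25A29, a carrier of basic amino acids, was lower by 1.01 in size (shift -1.01, -0.93 odd, -1.02 even), with 3.7% and 14.2% there.

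The calls of SLC25A29 and SLC25A40 were near the limit of the rule. That of SLC25A29 was lost without fraction 8, 9, 10, 12 or 14, at -0.91, -0.66, -0.78, -0.94 and -0.98. That of SLC25A40 was lost without fraction 8, 9, 10, 20 or 21, at 0.85, 1.01, 0.95, 0.92 and 0.98. SLC25A44 kept its call without any single fraction and was 0.89 with equal fraction totals. SLC25A29 and SLC25A40 are also low in level, at 1.77 and 3.67 per 1000000 in log phase. SLC25A6, SLC25A3 and SLC25A5 differed between the starvations by 0.05, -0.64 and -0.75, none past the rule, and the median over all 40 carriers was -0.01.

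The summed levels of most carriers differed by less than 1 on the log2 scale. Log2 ratios of levels were taken with a pseudocount of 1 and less the median over all genes, which was -0.43 without serum and -0.59 without amino acids. A level of 5 in either gradient was required, which left 29 carriers in each contrast. The level rule (at least 1 on the log2 scale, and 0.5 in odd and even fractions) called 3.06% of genes higher and 0.903% lower without serum, and 4.96% and 2.84% without amino acids. It called SLC25A6 higher in both, which as a count of 1 among 29 carriers is near the share of all genes. SLC25A6 stood at 789 in log phase, 1221 in serum starvation and 1128 without amino acids, a centred log2 ratio of 1.06 (1.19 odd, 0.93 even) and 1.10 (1.06 odd, 1.14 even). Not centred, the ratios were 0.63 and 0.51, and the calls did not hold, nor did they with equal fraction totals (0.77 and 0.53) or a pseudocount of 10 (0.90 and 0.87).

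SLC25A32, which carries folate and FAD, was the carrier called lower. It stood at 18.6 in log phase, 5.62 in serum starvation and 5.69 without amino acids. Its log2 ratio was -1.14 without serum (-1.13 odd, -1.13 even) and -0.96 without amino acids, the latter not past the rule. With equal fraction totals the serum ratio was -0.88 and with a pseudocount of 10 it was -0.60, and the call was lost in each. Not centred, the ratios were -1.57 and -1.55, both called lower. SLC25A3 and SLC25A5 had ratios of 0.66 and 0.34 without serum and 0.71 and 0.54 without amino acids, none past the rule. SLC25A4 stood at 63.6, 41.1 and 41.4 per 1000000, with ratios of -0.19 and -0.02. Between the starvations the level rule called 0.0401% of genes lower and 0.187% higher, and none of the 27 carriers with the minimum level. Levels hold only what was collected in fractions 3 to 22, and the unknown scale of each fraction enters them.

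**Figure D5:**
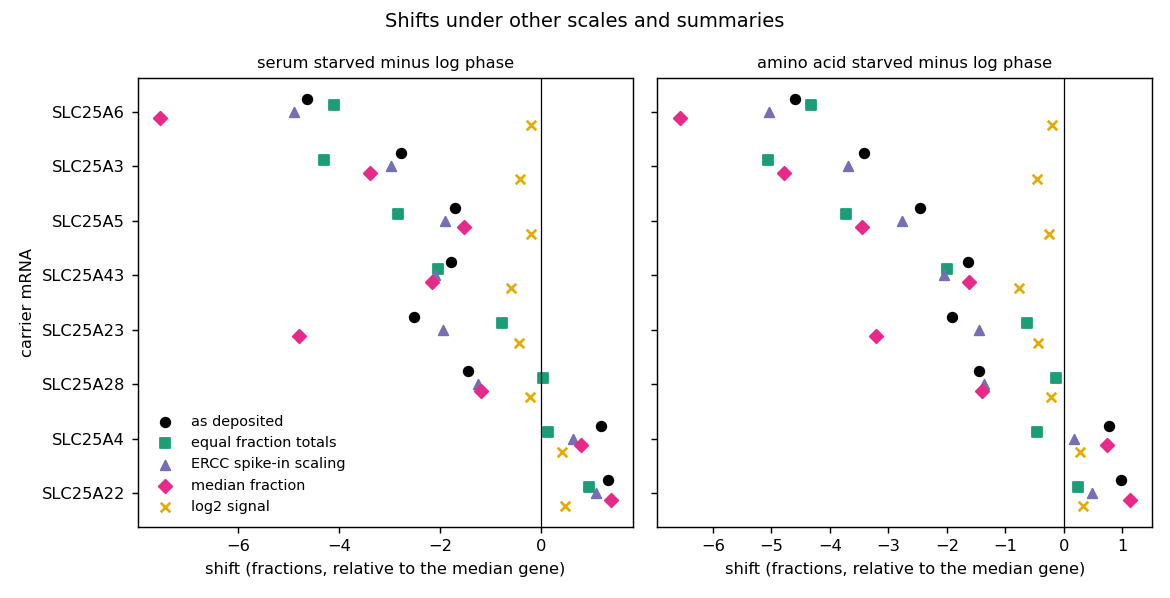
Shift of 8 carrier mRNAs (x axis, fractions relative to the median gene) without serum (left) and without amino acids (right) with the deposited signal, with equal fraction totals, with scaling to ERCC spike-in RNAs, with the median fraction as position and with log2 signal as weight. SLC25A6, SLC25A3 and SLC25A5 are below 0 in every setting, whereas SLC25A28 is at 0.04 and SLC25A4 at 0.14 without serum when the fraction totals are made equal.

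Genes whose products work with the carriers form lists of 16 to 19, too short to read their calls closely against the shares of all tested genes (9.86% lower and 5.7% higher without serum, 9.57% and 6.84% without amino acids). The 16 subunits of ATP synthase, which uses the phosphate and ADP that the carriers bring in, had 2 lower and none higher in each starvation, and medians of -0.03 and -0.03. The subunit ATP5A1 was the lowest at -3.05 and -3.43, similar in size to SLC25A3. ATP5G2, the most abundant at a level of 1259, shifted by -1.09 and -1.63, while ATP5G3, which encodes the same c subunit protein, shifted by 0.78 and 0.84.

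The 16 genes of the carrier import machinery, the TOM and TIM proteins that receive carriers from the cytosol, had 3 lower without serum and 1 lower without amino acids, with medians of -0.02 and 0.19. TOMM20, a receptor of the outer membrane, was the lowest at -1.98 and -2.40. The pore protein TOMM40 was the highest at 0.72 and 0.90, not past the rule, and TIMM13, a chaperone of the intermembrane space, shifted by 0.30 and 0.31. The 19 other mitochondrial membrane transporters had 1 lower and 1 higher in each starvation, with medians of 0.09 and 0.23. The higher was ABCB8 at 1.54 and 1.73, and the abundant channel VDAC2 shifted by 0.72 and 0.40.

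The 48 large ribosomal subunit protein mRNAs had medians of -2.99 without serum and -3.16 without amino acids, with 45 and 44 called lower. SLC25A6 shifted farther than these medians in both, SLC25A3 farther than the amino acid median only, and SLC25A5 less than both. This order depended on the scale. With equal fraction totals the ribosomal medians were -2.89 and -3.08. SLC25A3 (-4.29 and -5.06) and SLC25A6 (-4.09 and -4.32) then shifted farther in both, and SLC25A5 (-2.83 and -3.73) farther without amino acids only. Beside the windows at the annotated starts, SLC25A6 with a 6-base run shifted by -4.64 without serum, SLC25A22 with a run of the same length by 1.33 and SLC25A21 with 9 bases by -0.01. SLC25A3 and SLC25A5, with runs of 4 bases, shifted by -2.76 and -1.70, and SLC25A23 and SLC25A4, with none, by -2.52 and 1.18. SLC25A43, whose window is not printed, had no C at its annotated start and shifted by -1.77. No further carrier with a window was called lower without serum. These genes are a description, and the part of the start sequence in the shifts was not tested.

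The profiles most like those of SLC25A6, SLC25A3 and SLC25A5 were looked up over all 60 fractions, with equal fraction totals and log2 signal. These correlations describe the libraries, share their fractions and carry no p-value. For SLC25A6 the 5 nearest genes were RPL5 (Pearson r = 0.946), EEF1G (0.944), RPL4 (0.881), NOP53 (0.858) and EEF1A1 (0.858), of which RPL5 and RPL4 encode ribosomal proteins and EEF1G and EEF1A1 translation elongation factors. For SLC25A3 they were TKT (0.961), ACTG1 (0.956), EEF1A2 (0.952), LDHB (0.945) and ST13 (0.939), among them the enzymes transketolase and lactate dehydrogenase B. For SLC25A5 the nearest was SLC25A3 (0.929), before PPA1 (0.925), SERPINB6 (0.915), EEF1A2 (0.914) and LDHB (0.911). The ADP/ATP carriers were less alike than that, at 0.35 for SLC25A6 with SLC25A5, 0.66 for SLC25A5 with SLC25A4 and -0.27 for SLC25A6 with SLC25A4.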

How the data were processed

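Per the labels' protocols, poly(A) RNA of 60 gradient fractions and 3 lysates of HEK293 cells was made into stranded libraries. The lysates were not analysed here. Per the submitters' processing notes, kallisto 0.44.0, sleuth 0.29.0 and hg38 were used. The deposited signal is 1 value per gene symbol and fraction, made by the authors and named TPM, but its columns sum to different totals. The sources used here give no library depths, so no counting error is attached, and fractions of 1 gradient are not replicates. The table had 11104 rows, of which 29 ERCC and 1 luciferase spike-in rows were left out.

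Positions, shifts and levels were computed with Python 3.11.15, pandas 2.3.3 and NumPy 2.4.6, and figures drawn with matplotlib 3.10.9. The filter, size rule and level rule are given with the results. Shifts were computed for all 10889 tested genes and centred on their median, and the scripts were tested on simulated data. All 40 symbols matched the RefSeq GRCh38.p14 gene table. Alternatives were equal fraction totals, ERCC scaling, log2(signal + 1) weights, no centring, no filter, the median fraction, leaving out fractions 3 and 22, and leaving out each fraction, and for levels also a pseudocount of 10. Genes named were SLC25A3 to SLC25A6, every carrier past a rule, the 10 highest levels, the 3 highest and 3 lowest log phase positions, the 5 most similar genes of each abundant carrier, and the most abundant and most extreme genes of 3 pathway lists; other genes were named after their values were seen. Some genes that this rule names are not reported here. The members and lists were chosen with earlier results of these data known.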

Additional observations from a re-analysis of the deposited data

How the results depend on the processing

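With 1 gradient per condition, the values below show only how the summary of these libraries depends on its settings. The log phase position difference between the 3 abundant carriers and the others (0.95) was 2.65 with equal fraction totals and -0.65 with log2 signal as weight. The median serum shift of the 3 (-2.76) was -4.09 with equal totals, -0.20 with log2 signal, -4.11 without centring and -3.38 with the median fraction. Their amino acid shift (-3.42) was -4.32, -0.26, -5.22 and -4.79 in that order. Without centring the medians of the other carriers were -1.39 and -1.84. Other carriers called lower numbered 3 in each starvation. Without serum there were 0 with log2 signal, 29 without centring and 9 with the median fraction. Without amino acids there were 0, 34 and 7, and 5 with ERCC scaling. The share of all tested genes called was taken with the main setting only. These counts, and those with a fraction left out, thus cannot be read as a trait of the carriers. Without centring, the median tested gene itself moved by -1.35 without serum and -1.80 without amino acids. The serum shift of SLC25A28 turned to 0.041 with equal totals, and those of SLC25A4 and SLC25A22 to -0.17 and -0.024 without centring.

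Leaving out each fraction in turn gave 0.73 to 1.13 for the position difference, -3.13 to -2.14 and -3.73 to -2.86 for the serum and amino acid shifts of the 3 carriers, and -0.12 to -0.01 and -0.12 to 0.03 for those of the others. The counts ran from 3 to 5 without serum, with 5 when fraction 9 was left out, and from 2 to 4 without amino acids. The amino acid minus serum median of all carriers ran from -0.07 to 0.05. Leaving out the outermost fractions or the filter changed no call.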
